A study of Mus musculus with 2 samples.

Results

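Efferocytosis, the engulfment of apoptotic cells, was followed here through the H3K27ac peaks of 10 mouse genes: the receptors Mertk, Axl, Tyro3, Timd4 and Stab2, the bridging molecules Gas6, Pros1 and Mfge8, and the engulfment signalling genes Elmo1 and Dock1. They were taken by name and make up 10 of the 21938 protein-coding genes examined. The samples were 2 biological replicates of bone-marrow-derived macrophages of the C57BL/6J mouse strain, left without stimulation, and they form 1 group with no treated or mutant counterpart. Each library began with 10 ng of DNA and a size range of 350 to 480, for which the labels name no unit. Both biosamples carry 1 donor entry, so their spread may leave out differences between animals, and sex and age were unknown or not collected.

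Acetylation of histone H3 at lysine 27 (H3K27ac) marks active promoters and active distal elements such as enhancers, and chromatin immunoprecipitation with sequencing shows where it is enriched. A dying cell exposes phosphatidylserine on its surface. A phagocyte recognises this lipid either directly, through receptors such as TIM-4 (Timd4) and stabilin-2 (Stab2), or through soluble bridging proteins. Gas6 and protein S (Pros1) link phosphatidylserine to members of the TAM family of receptor tyrosine kinases, and Mfge8 links it to alpha v integrins. The TAM family is made up of Tyro3, Axl and Mertk. Inside the phagocyte, Elmo1 and Dock1 together activate the small GTPase Rac1, which reorganises actin around the corpse.

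The deposited lists held 29543 peaks for replicate 1 and 29345 for replicate 2, and 91.3% of the peaks of replicate 1 overlapped one of replicate 2. The authors' lists made from both libraries together, a replicated and a pooled list, held 32877 and 32909 peaks. Each peak has a fold over control or background set by the authors, which was read only within its list. The median fold was 7.03 in replicate 1 and 7.04 in replicate 2. Below, a percentile is the share of a list's peaks whose fold was no higher than that of the peak named. The labelled cell type was checked against markers: all 10 macrophage markers, among them Csf1r, Adgre1 and Spi1, had a promoter peak in both replicates, against 4 of 28 markers of other cell types (Ms4a1, Xcr1, Kdr and Cdh5). Kdr and Cdh5 are 2 of the 4 endothelial markers, while no marker of T cells, neutrophils, fibroblasts or epithelium was marked. No read depth was given, so a gene without a peak lay below the authors' threshold and need not lack H3K27ac. In a bulk culture, a mark in few cells and a weak mark in all cells cannot be told apart.

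The promoter sequences of the 5 genes with a promoter peak in both replicates are shown first, since the results turn on which starts were marked. They are the RefSeq promoters on GRCm38 patch 6 (mm10), printed 5′ to 3′ on the strand of the gene and ended before the first annotated start. Capitals mark GGGCGG, the word bound by SP and KLF factors, or its reverse complement.
Mertk (chr2:128698665-128698914, plus strand): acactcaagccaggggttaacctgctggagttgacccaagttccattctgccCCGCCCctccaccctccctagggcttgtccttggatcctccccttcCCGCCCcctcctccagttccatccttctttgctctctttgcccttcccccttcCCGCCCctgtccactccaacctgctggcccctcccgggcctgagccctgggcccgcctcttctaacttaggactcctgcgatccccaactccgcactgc
Elmo1 (chr13:20090257-20090506, plus strand): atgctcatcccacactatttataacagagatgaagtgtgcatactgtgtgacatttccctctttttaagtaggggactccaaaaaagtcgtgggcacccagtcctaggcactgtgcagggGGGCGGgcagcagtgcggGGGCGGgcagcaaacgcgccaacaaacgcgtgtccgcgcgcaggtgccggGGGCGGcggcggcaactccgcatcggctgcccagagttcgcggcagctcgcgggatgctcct
Dock1 (chr7:134670437-134670653, plus strand): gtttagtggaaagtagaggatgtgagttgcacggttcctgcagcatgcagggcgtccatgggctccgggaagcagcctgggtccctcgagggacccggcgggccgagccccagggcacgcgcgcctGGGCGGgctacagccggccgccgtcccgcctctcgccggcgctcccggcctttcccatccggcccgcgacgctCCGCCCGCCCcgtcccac
Gas6 (chr8:13494536-13494785, minus strand): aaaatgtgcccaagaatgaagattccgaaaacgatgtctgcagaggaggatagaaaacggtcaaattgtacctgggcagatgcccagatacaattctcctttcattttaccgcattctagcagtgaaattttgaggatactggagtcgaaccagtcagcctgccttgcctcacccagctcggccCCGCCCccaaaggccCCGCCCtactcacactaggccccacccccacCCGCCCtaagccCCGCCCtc
Stab2 (chr10:87008026-87008192, minus strand): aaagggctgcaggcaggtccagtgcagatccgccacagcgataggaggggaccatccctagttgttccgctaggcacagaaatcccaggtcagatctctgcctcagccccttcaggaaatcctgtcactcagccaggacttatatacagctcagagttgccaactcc
GGGCGG stood 3 times in the Mertk, the Elmo1 and the Dock1 sequence and 4 times in that of Gas6, with 2 of the Dock1 matches overlapping. It was not found in that of Stab2, whose 5′ end carried no peak. No link to marking can be drawn from this, since no unmarked gene's promoter is shown and the Gas6 sequence overlapped no replicate peak. Of all 32851 RefSeq promoters, which are 300 bases each, 32.7% hold the word in the 250 bases before the start. The shares for the other words below cover the same 250 bases. The printed Dock1 and Stab2 sequences are shorter, at 217 and 167 bases. None of the 5 sequences held any of the other 8 words searched on both strands, which were the PU.1 word GAGGAAGT, the ETS word CCGGAAG, the AP-1 word TGANTCA, the C/EBP word TTGCNNAA, the MAF word TGCTGA, the RUNX word TGTGGT, the CRE word TGACGTCA and the MiT/TFE E-box TCACGTGA. Of all promoters, 2.44% hold the PU.1 word, 6.91% the ETS word, 6.75% the AP-1 word, 9.56% the C/EBP word, 16.1% the MAF word, 14.0% the RUNX word, 1.55% the CRE word and 0.785% the E-box. A match describes the letters only and is not evidence of a bound factor.

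The distal sequences shown are 200 bases at the middle of the highest shared distal peak of 4 genes, ranked by fold in replicate 1. In replicate 2 the choice would differ: the highest distal peak of Mertk was the one past its 3′ end (27.7-fold, against 26.8-fold in intron 4), and that of Dock1 (15.6-fold) stood above that of Axl (14.6-fold). A distal peak lies over 1 kb from every start of a protein-coding gene, and the window of a gene is its body plus 25 kb to either side. The sequences are printed on the plus strand of the same build, with matches to the 9 words in capitals. The 200 bases listed for Axl lie 57197 to 57396 bp from its 5′ end, just outside its window. Only the edge of that peak reaches into the Axl window.
Gas6 upstream (chr8:13503429-13503628): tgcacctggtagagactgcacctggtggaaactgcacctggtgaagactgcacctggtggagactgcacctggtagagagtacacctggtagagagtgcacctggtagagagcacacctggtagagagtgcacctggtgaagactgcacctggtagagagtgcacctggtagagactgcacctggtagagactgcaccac
Elmo1 intron 1 (chr13:20127986-20128185): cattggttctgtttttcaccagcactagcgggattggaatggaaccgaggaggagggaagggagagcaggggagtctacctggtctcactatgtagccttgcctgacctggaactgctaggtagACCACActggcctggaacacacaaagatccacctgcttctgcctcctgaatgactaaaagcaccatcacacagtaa
Mertk intron 4 (chr2:128746927-128747126): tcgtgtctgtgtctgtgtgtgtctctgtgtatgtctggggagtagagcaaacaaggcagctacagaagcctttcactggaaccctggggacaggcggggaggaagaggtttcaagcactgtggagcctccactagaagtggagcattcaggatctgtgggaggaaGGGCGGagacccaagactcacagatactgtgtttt
Axl window, inside Hnrnpul1 (chr7:25731309-25731508): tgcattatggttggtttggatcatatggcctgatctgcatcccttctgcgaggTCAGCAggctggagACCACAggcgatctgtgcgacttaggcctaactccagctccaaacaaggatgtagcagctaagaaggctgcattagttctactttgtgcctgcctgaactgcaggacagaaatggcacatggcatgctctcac
The RUNX word stood in the Elmo1 and Axl sequences, against 16.6% of 15069 distal regions of the same length. The MAF word stood in the Axl sequence, against 18.2% of regions, and GGGCGG in that of Mertk, against 3.93%. The Gas6 sequence is a tandem repeat and held none of the 9 words.

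A promoter peak, meaning a peak within 1 kb of any annotated start, was present in both replicates at 5 of the 10 genes: Mertk, Stab2, Gas6, Elmo1 and Dock1. Over all protein-coding genes the share was 39.4%. Within 1 kb of the 5′ end itself, 4 genes had a peak in both replicates, Stab2 being the one lost, against 36.1% of all genes. Neither replicate had a promoter peak at Axl, Tyro3, Timd4 or Mfge8, as at 57.3% of all genes. Pros1 had one in replicate 2 alone, as did 2.27% of all genes. By role, 2 of 5 receptors, 1 of 3 bridging genes and both signalling genes were marked. No share here has a test, since the data hold 1 group. The 10 genes were also chosen with earlier results of these data known.

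**Figure D1:**
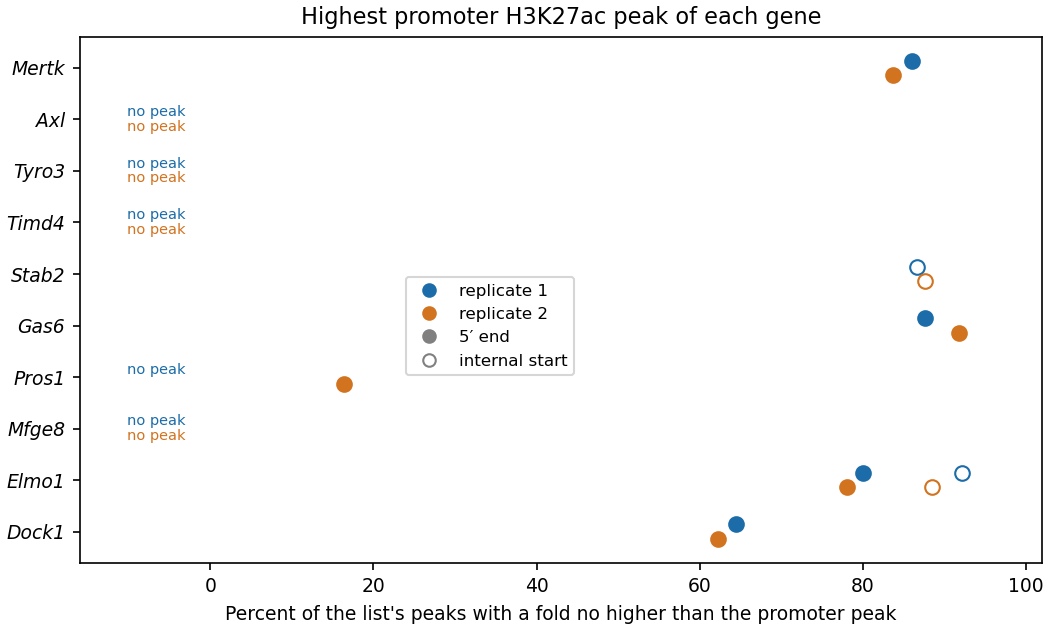
Fold percentile of the highest promoter peak of each gene within its replicate's list (filled points, at the 5′ end; open points, at an internal start). Gas6, Mertk, Stab2 and Elmo1 lie at or above 78.0 in both replicates, Dock1 lies at 64.4 and 62.2, and 4 genes have no promoter peak in either.

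Among the receptors, Mertk (chr2:128698956-128802894, plus strand) was the one marked at its 5′ end. Its promoter peak reached 17.4-fold in replicate 1 and 16.3-fold in replicate 2, at percentiles of 86.0 and 83.7 (mean 84.9 ± 1.66, SD, n = 2). It was 1196 and 980 bp wide, against list medians of 898 and 962 bp. A second peak lay just upstream, with folds of 13.4 and 12.6. The upstream peak ended at -211 and -144 bp from the 5′ end and the other began at -11 and -26 bp, so the breaks of the 2 replicates overlapped. In the lists made from both libraries the downstream peak was 1878 bp wide.

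Mertk also had 9 distal peaks shared by both replicates, a number reached by 0.957% of all genes. Of these, 5 lay in introns, with folds in replicates 1 and 2 of 18.2 and 15.8 and of 24.2 and 22.3 in intron 1, 26.0 and 26.8 in intron 4, 5.20 and 6.87 in intron 5, and 23.1 and 23.6 in intron 18. The other 4 lay just past the 3′ end, and the highest of them had folds of 24.8 and 27.7. The replicates differed most in percentile at the weak peaks, by 16.2 in intron 5 and by 18.5 at a downstream peak with folds of 4.30 and 5.70. In replicate 1, 4 of the 9 peaks were in the upper 10% of the list. The start nearest to 4 of the 9 was that of Mertk; for the other 5, the intron 18 peak included, it was that of Tmem87b, whose own promoter peak in the Mertk window had folds of 37.7 and 39.4. Which gene a peak acts on was not measured.

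Stab2 (chr10:86841198-87008025, minus strand), a receptor for phosphatidylserine and hyaluronan best known from sinusoidal endothelium, was marked only far inside the gene. Its peak had folds of 17.7 and 18.9 and percentiles of 86.6 and 87.6, and was 2952 and 2631 bp wide. It lay in intron 42, at a start that belongs to a retained-intron transcript, 122276 bp from the 5′ end. No peak lay closer to the 5′ end than 118266 bp in replicate 1 and 118294 bp in replicate 2. Of all genes marked in both replicates, 7.37% likewise had no peak at the 5′ end in either. With protein-coding transcripts alone Stab2 was not marked, and 4 of the 10 genes were. Its 1 shared distal peak, in intron 41, had folds of 7.06 and 6.22. Replicate 1 alone had 2 distal peaks there, as did both lists made from the 2 libraries, and no distal peak was counted when distal meant over 2.5 kb from any start.

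Axl (chr7:25757273-25788705, minus strand), Tyro3 (chr2:119797733-119818104, plus strand) and Timd4 (chr11:46810800-46844332, plus strand) had no promoter peak in either replicate. The peak nearest to the 5′ end of Axl was 11004 and 11156 bp away, in intron 6, with folds of 4.65 and 4.19. These values were among the lower ones of their lists, at percentiles of 26.1 and 19.0. The other shared distal peak of the Axl window, with folds of 15.7 and 14.6, lay inside Hnrnpul1, the neighbouring gene for an RNA-binding protein, and nearest to a start of that gene. The promoter peak of Hnrnpul1 had folds of 22.0 and 26.6. The nearest peak to Tyro3 was 55596 bp away in replicate 1 and 55575 bp in replicate 2. For Timd4, a receptor known from tissue-resident macrophages, it was 329385 and 329390 bp away, so its whole window was empty of peaks in all 4 lists.

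The authors' lists made from both libraries held weak entries that the replicate lists did not. At Axl the replicated list had a peak of fold 2.97 that began 1820 bp from the 5′ end. It lay within 1 kb of an internal start 1639 bp from that end. At Tyro3 both such lists had a peak of fold 3.62, placed 10259 bp upstream at the promoter of Rpap1. These folds stood at percentiles of 8.09 and 20.5 in the replicated list.

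Among the bridging molecules, Gas6 (chr8:13465374-13494490, minus strand) had the highest 5′ promoter peak of the 10 genes. Its folds were 18.4 and 22.6, its percentiles 87.6 and 91.8 (mean 89.7 ± 2.96, SD, n = 2) and its widths 3605 and 3061 bp. The peak lay over the first part of the gene and began 158 and 156 bp inside the gene, so the 5′ end itself lay outside it in both replicates. The printed promoter sequence of Gas6 therefore overlapped no replicate peak.

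Upstream of Gas6 lay the broadest and highest distal region of the 10 genes. It spanned -12618 to -5167 bp from the 5′ end in replicate 1 and -13821 to -5459 bp in replicate 2. Its fold was 37.7 in replicate 1, at rank 283 of the list, and 34.7 in replicate 2, at rank 509. The widths of 7452 and 8363 bp were at width percentiles of 99.5 and 99.6. A smaller peak beside it, of fold 7.06 in replicate 1, fell inside the broad peak of replicate 2, which gave the largest percentile difference of any replicate pair, 47.1. The region holds 16 copies of CACCTGGT over 264 bp (chr8:13503351-13503614). In the 200 bases printed above, which overlap most of that stretch, 88.1% of the bases equal the base 32 positions on. Over all 15069 distal regions of that length, each read at its own best spacing, the median was 34.2%, and 0.0465% were as repetitive. The summits lay 115 and 113 bp outside the repeat. The repeat was looked for after the sequence was seen, and its part in the fold was not tested.

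**Figure D2:**
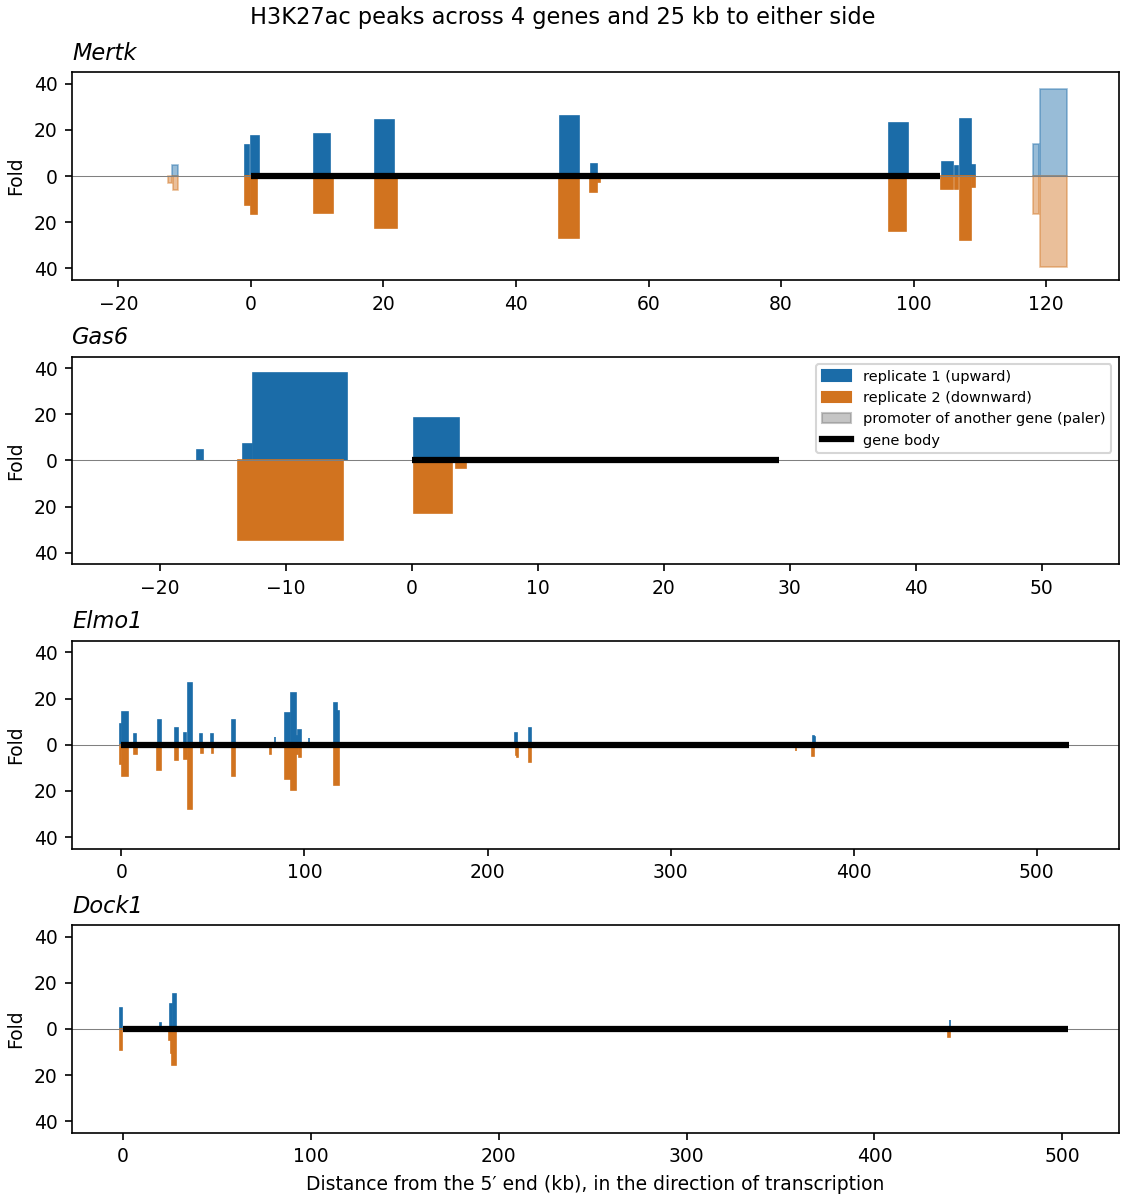
Peaks of replicate 1 (upward) and replicate 2 (downward) at Mertk, Gas6, Elmo1 and Dock1, by distance from the 5′ end in kb, with height as the authors' fold and width to scale. The 2 replicates mirror each other at the high peaks, and the Gas6 region upstream of the start is the broadest at 7452 and 8363 bp.

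Pros1 (chr16:62854307-62929346, plus strand), which encodes protein S, was split between the replicates. Replicate 2 had a narrow peak of 326 bp that began 78 bp past the 5′ end, with a fold of 4.02 at a percentile of 16.4. Replicate 1 had no peak nearer than 66792 bp. The replicated list held a peak there of fold 3.71, at a percentile of 22.0. Mfge8 (chr7:79133768-79149060, minus strand) had no peak in its window in any list, and the nearest was 120460 and 120659 bp from the 5′ end.

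Of the signalling pair, Elmo1 (chr13:20090596-20608353, plus strand) was marked at 3 starts used by protein-coding transcripts. At the 5′ end the peak had folds of 14.1 and 13.7, percentiles of 80.1 and 78.0 (mean 79.0 ± 1.43, SD, n = 2) and widths of 3135 and 3344 bp. A second peak upstream of the start had folds of 8.78 and 8.38. It ended at -236 and -258 bp, and the main peak began at 335 and 263 bp, so the 5′ end lay in the gap in both replicates. At the start 20916 bp inside the gene the folds were 10.5 and 10.9. At the start 94611 bp inside they were 22.4 and 19.6, at percentiles of 92.1 and 88.5, so both replicates had the internal start higher than the 5′ end.

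Elmo1 had 15 shared distal peaks, counted in replicate 1, a count that 0.109% of all genes reach. Adjoining peaks with folds of 18.1 and 14.4 in replicate 1 overlapped the same peak of replicate 2, of fold 17.4. Another of the 15, of fold 3.79 in replicate 1, overlapped a peak of replicate 2 that was within 1 kb of an internal start. That peak had a fold of 3.85, and both lists made from the 2 libraries likewise had a promoter peak there. The count was 13 when 50% of both peaks had to overlap. All 15 were intronic, all had Elmo1 as the nearest start, and 12 lay within 120 kb of the 5′ end, a distance chosen after the positions were seen. The highest, in intron 1, had folds of 26.7 and 28.0. The median fold of the 15 in replicate 1 was 6.37 and 1 of them was in the upper 10% of its list, against a median of 18.2 and 4 of the 9 at Mertk. The gene is long, and per 100 kb of window Elmo1 had 2.64 such peaks and Mertk 5.85, densities reached by 13.4% and 2.73% of genes.

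Dock1 (chr7:134670654-135173639, plus strand) had the weakest of the promoter peaks shared by both replicates. Its folds were 9.29 and 9.05, its percentiles 64.4 and 62.2 (mean 63.3 ± 1.59, SD, n = 2) and its widths 1319 and 1144 bp. The peak lay upstream of the start and ended at -174 and -196 bp. Of its 3 shared distal peaks, the highest in intron 1 had folds of 15.0 and 15.6, above the promoter in both replicates, and the next had 10.7 and 10.2. The last, in intron 35, had 3.96 and 3.52 and lay nearest to the start of Nps.

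**Figure D3:**
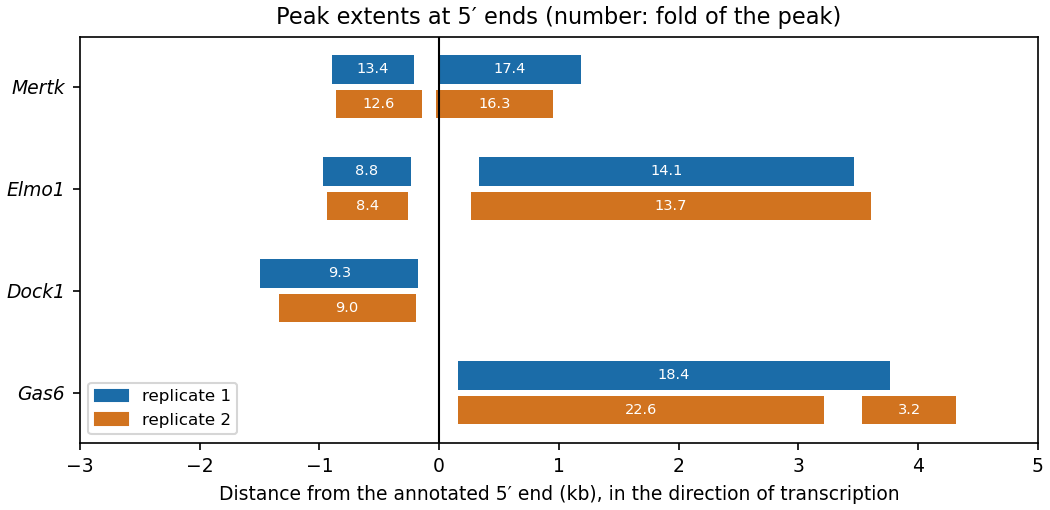
Extent of the peaks at the 5′ ends of Mertk, Elmo1, Dock1 and Gas6 in each replicate, in kb from the annotated start, with the fold written in each bar. The start lies inside a peak of both replicates at Mertk; at Elmo1 it falls between peaks, at Dock1 the peak ends 174 and 196 bp before it, and at Gas6 it begins 158 and 156 bp past it.

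By fold percentile the 5′ promoter peaks ranked Gas6, Mertk, Elmo1, Dock1 in all 4 lists, and no neighbours in this order overlapped between their replicate values. By width the order differed, with Gas6 and Elmo1 above 3 kb in both replicates and Dock1 and Mertk below 1.4 kb. The width percentiles of the Mertk peak were 63.1 and 51.0, against fold percentiles of 86.0 and 83.7. Of the 4 genes, 1 had its 5′ end inside a peak of both replicates, against 41.3% of all genes with a 5′ peak in both, a measure chosen after the peaks were seen. Over the 41 pairs of peaks that the replicates shared at promoters and distal sites of the 10 genes, the fold percentile differed by a median of 3.57. Each replicate had 6 peaks that the other lacked, none with a fold above 4.99 in replicate 1 or 5.20 in replicate 2.

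Shared distal peaks stood in the windows of 6 genes, against 35.1% of all genes. Elmo1 had 15, Mertk 9, Dock1 3, Axl and Gas6 2 each and Stab2 1, so 24 of the 32 belonged to Mertk and Elmo1. The median over all genes was 0. In bases, peaks of both replicates covered 25443 bp of the Elmo1 window, 23242 bp of that of Mertk and 11193 bp of that of Gas6, against a median of 964 bp over all genes. As a share of the window this was 4.48% at Elmo1, 15.1% at Mertk and 14.1% at Gas6, against a median of 1.12%. A share as high as that of Elmo1 was found at 25.1% of genes, and as high as those of Mertk and Gas6 at 4.53% and 5.19%. The covered length was 4922 bp at Axl, 4545 bp at Dock1 and 3350 bp at Stab2, and 0 at the remaining 4 genes. These lengths count any peak in the window, promoters of neighbouring genes included, for the 10 genes and for all genes alike. In the Axl window 3669 of the 4922 bp were promoter peaks of Hnrnpul1 and 852 bp the distal peak inside that gene, of which only the edge falls in the window, so 401 bp lay nearest to Axl. In the Mertk window 5753 bp were promoter peaks of other genes, which leaves 17489 bp. Of these, 6740 bp were distal peaks nearest to the start of another gene. The rest was 9133 bp of distal peaks nearest to Mertk and 1616 bp of its own promoter peaks. At Stab2, Gas6, Elmo1 and Dock1 none of the covered length lay in promoter peaks of other genes. Without such peaks Gas6 (11193 bp of 79.117 kb) had a larger covered share than Mertk (17489 bp of 153.939 kb).

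**Figure D4:**
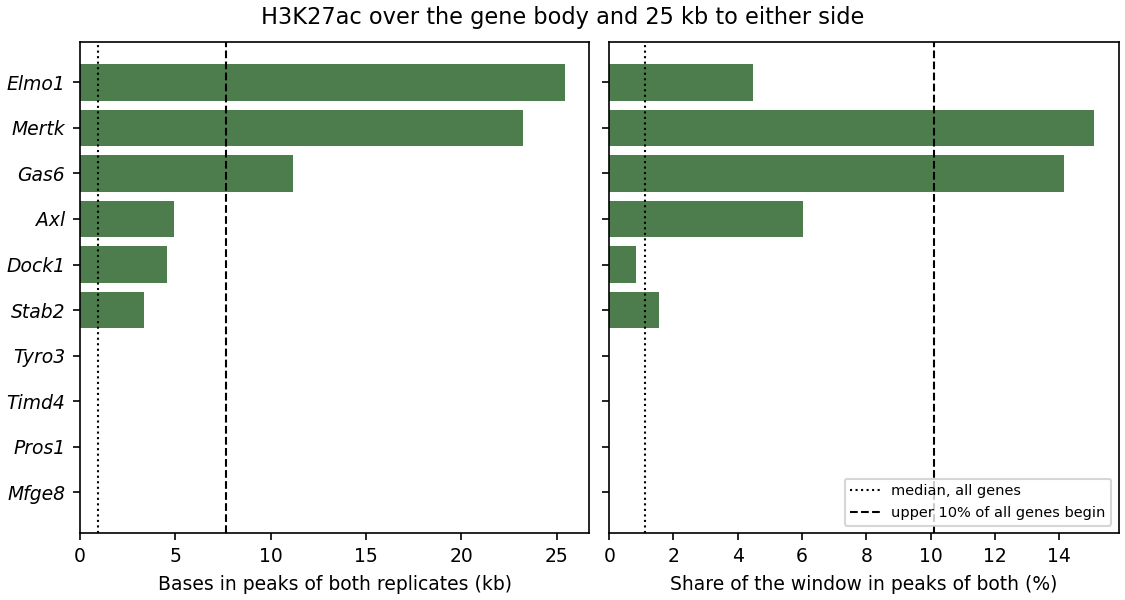
Bases of each gene's window in peaks of both replicates, in kb (left) and as a percent of the window (right), with the median and the start of the upper 10% of all genes as lines. Promoter peaks of neighbouring genes are included. With these included, Elmo1 leads by bases (25443 bp) and Mertk by share (15.1%), and Tyro3, Timd4, Pros1 and Mfge8 are at 0. Without them the share of Gas6 (14.1%) is above that of Mertk.

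Promoters rich in CpG stood on both sides of the call. The RefSeq promoter of Dock1, marked, was 70.7% G and C with an observed to expected CpG ratio of 0.911. That of Tyro3, unmarked, was 73.3% G and C with a ratio of 0.879. Mertk and Axl, both receptors of the TAM family, had 66.0% and 60.3% and ratios of 0.498 and 0.220. Elmo1 and Gas6 had ratios of 0.794 and 0.705, Pros1 0.645 and Mfge8 0.548, and Timd4 and Stab2 had 0.260 and 0.192. The medians over all promoters were 52.7% and 0.384.

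The rest of the pathway was read from a list of 76 other efferocytosis genes in 6 roles, of which 59 (77.6%) were marked in both replicates, against 39.4% of all genes. The list holds many genes chosen for what macrophages are known to do, and it was drawn up with earlier results of these data known. Its share is therefore not set against that of the 10 genes, or that of all genes, as a result. Elmo3, a relative of Elmo1, was marked in replicate 1 alone, and 16 genes in neither. Other engulfment receptors were marked at 11 of 18 genes. The highest were Itgb5, an integrin subunit that pairs with alpha v and binds Mfge8, with folds of 47.4 and 51.2, and Stab1, the scavenger receptor related to Stab2, with 47.7 and 46.6. Adgrb1 (BAI1) and Havcr1 (TIM-1), receptors for phosphatidylserine, had no promoter peak in either replicate.

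Other bridging and opsonin genes were marked at 6 of 12. Lgals3, a galectin, had folds of 40.8 and 46.1, and C1qb, a chain of complement C1q, had 30.4 and 29.2. C1qc, another chain, tied with C1qb at 35.4 in the replicated list and had 32.2 and 33.0. Apoh and Edil3 were unmarked, Edil3 being a relative of Mfge8 also known as Del-1. Of other engulfment signalling genes, 12 of 16 were marked. Rhog, a small GTPase that acts ahead of Elmo1, had 37.9 and 45.4, and Dock2, a Dock1 relative of blood cells, had 31.5 and 40.1. Those folds were above the 9.29 and 9.05 of Dock1 in both replicates. Gulp1, an engulfment adaptor, and Src, a tyrosine kinase, were unmarked.

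All 6 receptors for signals that draw phagocytes to dying cells were marked, with P2ry6, a nucleotide receptor, at folds of 24.3 and 23.6, and S1pr2, a receptor for sphingosine 1-phosphate, at 19.6 and 19.9. All 6 genes for signals against engulfment and for shedding were marked. Sirpa, the receptor for CD47, reached 54.2 and 51.6, the highest fold in the list of replicate 1, and Cd47 had 22.5 and 23.6. All 18 genes of corpse digestion and lipid handling were marked, with Lipa, the lysosomal acid lipase, at 40.8 and 42.2 and Npc1, a lysosomal cholesterol transporter, at 39.8 and 41.4.

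**Figure D5:**
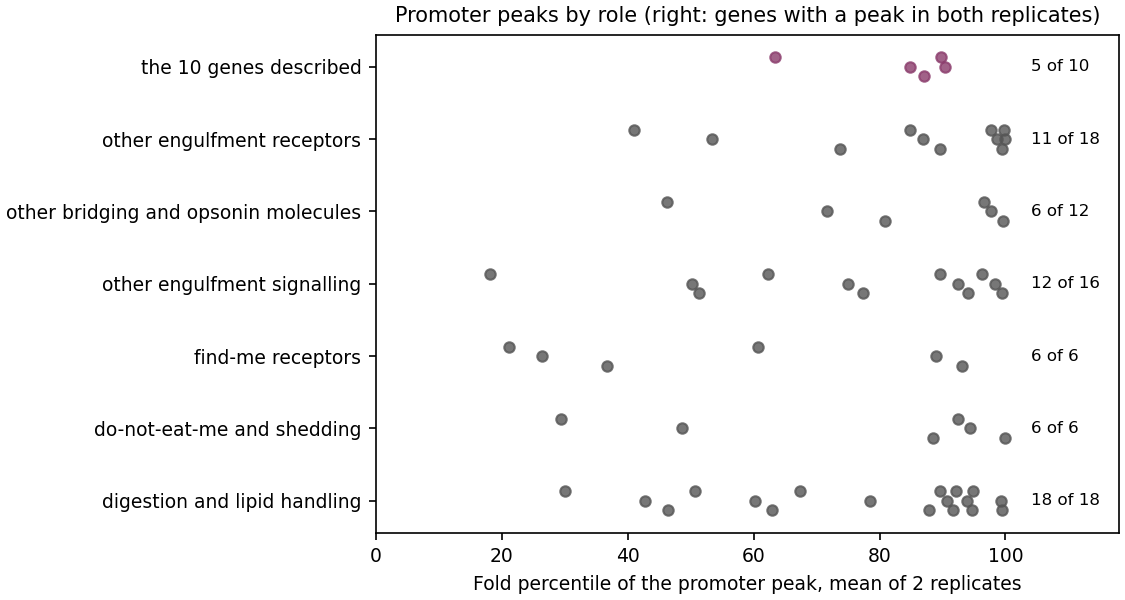
Fold percentile of the promoter peak, as the mean of 2 replicates, for each gene marked in both, by role; the count at the right gives marked genes of all in the role. The 5 marked genes of the 10 described lie between 63.3 and 90.3, and each of the other roles spreads more widely.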

How the data were processed

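H3K27ac peaks were read from 4 deposited mm10 lists, 1 per replicate and 2 made from both libraries (whose values are the authors' own, without SD or n), per the README text deposited with each sample. The authors' deposited fold of a peak is a linear ratio, and the deposited q-value is on a −log10 scale. Summit offsets are the deposited values. Aligner, peak caller, settings and depth are not given in the sources used here, and no step recorded scales folds between lists. Positions are 1-based on GRCm38 patch 6 with GENCODE M21 gene models (Python 3.11.15, samtools 1.23.1). Peaks of the replicates were called shared at 1 bp of overlap, distal peaks being counted in replicate 1. Calls were checked on 500 made-up genes. The data hold 1 group, so no test was run, and each count is set beside the same count over all genes. The 10 genes, the 76 pathway genes and the words were chosen with earlier results of these data known. Named by rule were the 10 genes, in each role the 2 marked genes highest in the replicated list (C1qb and C1qc tied) and the first 2 by alphabet marked in neither, and genes starting in or near a member's peaks. Alternatives for windows, thresholds and lists are given at the end.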

Additional observations from a re-analysis of the deposited data

How the results depend on the processing

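No paired analysis was possible because the samples form 1 group. The number of the 10 genes marked was 5, and 4 to 7 under the alternatives: Stab2 was lost at the 5′ end alone and with protein-coding transcripts alone, Axl was gained with a promoter window of 2.5 kb, Pros1 with replicate 2 or the pooled list alone, and both Axl and Pros1 with the replicated list. Without replicate 1 the number was 6 and without replicate 2 it was 5. The number of genes with a shared distal peak was 5 or 6 and that of pathway genes marked 53 to 63. Distal peaks over the 10 genes numbered 32, and 25 to 43 except among the 20000 peaks with the highest fold, where there were 21, of them 8 at Elmo1, since that alternative removes the weaker peaks. Distal counts of single genes moved more: Axl from 1 to 5 (2 as reported), Dock1 from 1 to 5 (3), Gas6 from 0 to 4 (2), Stab2 from 0 to 2 (1) and Mertk from 4, limited to peaks nearest its own start, to 12 (9). Of 46 alternatives for the 4 counts over all genes listed, 45 stayed within 1.5 times the main count; of 216 for values of single genes, 176 stayed within that or their spread and 40 did not. Depth was not given, so how many peaks it hides is unknown.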

Other observations

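Several pathway genes outside the naming rule were picked after their values were seen. Their distal counts are not scaled by window length, which differs between genes, or set beside the counts over all genes. Pparg, a lipid-sensing nuclear receptor, had 14 shared distal peaks in its window beside a promoter peak with folds of 6.45 and 6.62. Trio, a guanine nucleotide exchange factor, had 13 beside promoter folds of 3.79 and 4.52. Cd36, a scavenger receptor, had 9 beside 8.06 and 6.97. Tgm2, a transglutaminase that takes part in engulfment, had 6 shared distal peaks and no promoter peak in either replicate. C1qa, which lies beside C1qb and C1qc on chromosome 4 and encodes the remaining chain of complement C1q, had promoter folds of 11.4 and 11.1 and 1 shared distal peak.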
